A study of Mus musculus with 3 samples.

Results

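Leukocytes of the naive mouse brain were set beside leukocytes of the blood inside the same surface gates, 5 in number: CD8+, NK1.1+, Ly6C-low, Ly6C-high and Ly6C+ Ly6G+. The gates were the authors' own calls from antibody tags on each cell. In the brain, the NK1.1+ gate also asked for no CD3 tag. Brain cells with the authors' label for native myeloid cells of the central nervous system or for B220 were left out of every gate. The blood gates were taken from the authors' final cell label with no such step. The gates held 2855 of the 5577 cells in the 2 annotated matrices (11510 cells with the matrix of the metastatic brain, which was not used for levels). In the brain, 317 gated cells came from the sample labelled control and 529 from the sample labelled depleted. The blood gave 902 and 1107 gated cells in the same order.

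All mice were female C57Bl/6 animals of 2 to 3 months that carried Cx3cr1CreERT, a tamoxifen-driven Cre recombinase in cells with an active Cx3cr1 gene. Mice of the depleted arm were Cx3cr1CreERT-ROSA-iDTR, in which Cre also switches on a receptor for diphtheria toxin, and mice of the control arm lacked that receptor gene. Both arms of both tissues had tamoxifen, then a pause, then diphtheria toxin, and the submitters state that some microglia remained in the depleted brains. The naive brains came from mice without tumours. The blood matrix is named for mice with metastases, which in this study were brain metastases of E0771 mammary tumour cells about 2 weeks after injection into the carotid artery. Each tissue had 1 hashed sample per arm, a single brain hemisphere or peripheral blood by the labels, so no test was made. Tissue, tumour, preparation (digestion and a Percoll gradient for the brain, red cell lysis for the blood) and the matrix in which counts were corrected cannot be told apart in this comparison.

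Circulating CD8 T cells that have not met antigen travel between blood and lymph nodes with CCR7 and a receptor for sphingosine-1-phosphate, while effector and memory cells in tissues carry granzymes, chemokines and other homing receptors. NK cells kill with the same granules. Blood monocytes divide into Ly6C-high classical cells, which enter inflamed tissue, and Ly6C-low nonclassical cells, which patrol vessels. Neutrophils carry Ly6G beside some Ly6C, and make their granule proteins in the bone marrow before release. The perfused brain without inflammation holds few of these cells beside its own microglia and border macrophages.

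A cell's gate and its sample were read from short DNA tags on antibodies. The tags of the gating antibodies and of the 4 hashtag antibodies are shown because every group below rests on them. Each has 15 bases, and any pair among these 11 tags differed at 8 or more positions.
Ly6C: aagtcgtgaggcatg
Ly6G: acattgacgcaacta
CD11b: tgaaggctcatttgt
NK1.1: gtaacattactcgtc
CD3: gtatgtccgctcgat
CD8a: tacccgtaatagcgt
CD45R/B220: cctacacctcataat
hashtag 1, naive brain labelled control: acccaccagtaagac
hashtag 4, naive brain labelled depleted: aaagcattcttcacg
hashtag 7, blood labelled control: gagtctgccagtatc
hashtag 8, blood labelled depleted: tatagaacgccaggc

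Droplets were not all distinct between the matrices. The naive brain and blood matrices shared 339 cell barcodes, all 339 with equal raw RNA totals and equal antibody totals in both, and 0 with equal hashtag totals. Of these, 77 stood in a gate on both sides and 37 in the same gate. Counting the metastatic brain too, 26.0% of Ly6C-low, 66.0% of Ly6C-high, 72.8% of Ly6C+ Ly6G+, 19.4% of NK1.1+ and 12.99% of CD8+ cells of the brain had a barcode listed in another matrix. In the blood these shares were 12.3%, 9.79%, 12.96%, 85.9% and 65.0%. The main counts, lists and genes are therefore given with all cells and without shared droplets. Leaving them out left 51 brain cells in the Ly6C-high gate, 31 in the Ly6C+ Ly6G+ gate, and 28 blood cells in each of the NK1.1+ and CD8+ gates. Depth also differed: the median raw count of molecules (UMIs) per cell was 12524.5 in the brain and 3130 in the blood for Ly6C+ Ly6G+, and 7239 against 19228.5 for NK1.1+.

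Levels are molecules per 10000 (CP10k), summed over the cells of a gate and sample, so a shift in which cells a gate holds and a shift in level per cell cannot be told apart. Pairs of values give the sample labelled control first and that labelled depleted second. A log2 ratio sets the pooled brain over the pooled blood after adding 0.1 CP10k to each, and a fold is the same ratio on the linear scale. A gene is called higher or lower where the tissues differ at least 2-fold, the level reaches 0.5 CP10k in a tissue, and both samples of one tissue lie above both of the other. This is a description of 4 samples, not a test. Intervals are 95% Poisson intervals of the molecules after the authors' depth correction, treated as if they were observed counts. They stand for counting error only and leave out the correction itself.

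The gates were first checked against RNA markers. The brain's CD8+ gate matched its name: 144 of its 154 cells lay in a cluster led by CD8 T cell genes, and its 4 samples are compared below. In the blood, 49 of 80 CD8+ cells lay in the T and NK cell cluster and 26 in a cluster that held 10 of 10 microglia markers. The NK1.1+ gate of the blood went against its name. Of its 198 cells, 103 (52.0%) lay in that microglia-like cluster, 37 in a deep cluster led by Krt8 and Rhox5, and 13 in the T and NK cell cluster, whereas 102 of 155 brain cells lay in an NK cluster and 39 in the CD8 T cell cluster. Among the myeloid gates, 75 of 150 Ly6C-high brain cells and 125 of 143 blood cells lay in the classical monocyte cluster of their matrix. That cluster of the brain was led by Cxcl9. At least 2-fold up in it were 10 of 10 classical monocyte markers, and also 4 of 8 border macrophage and 2 of 8 dendritic cell markers. For Ly6C-low, 112 of 273 brain cells and 372 of 693 blood cells lay in the nonclassical cluster. For Ly6C+ Ly6G+, 59 of 114 brain cells and 807 of 895 blood cells lay in the neutrophil cluster.

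**Figure D1:**
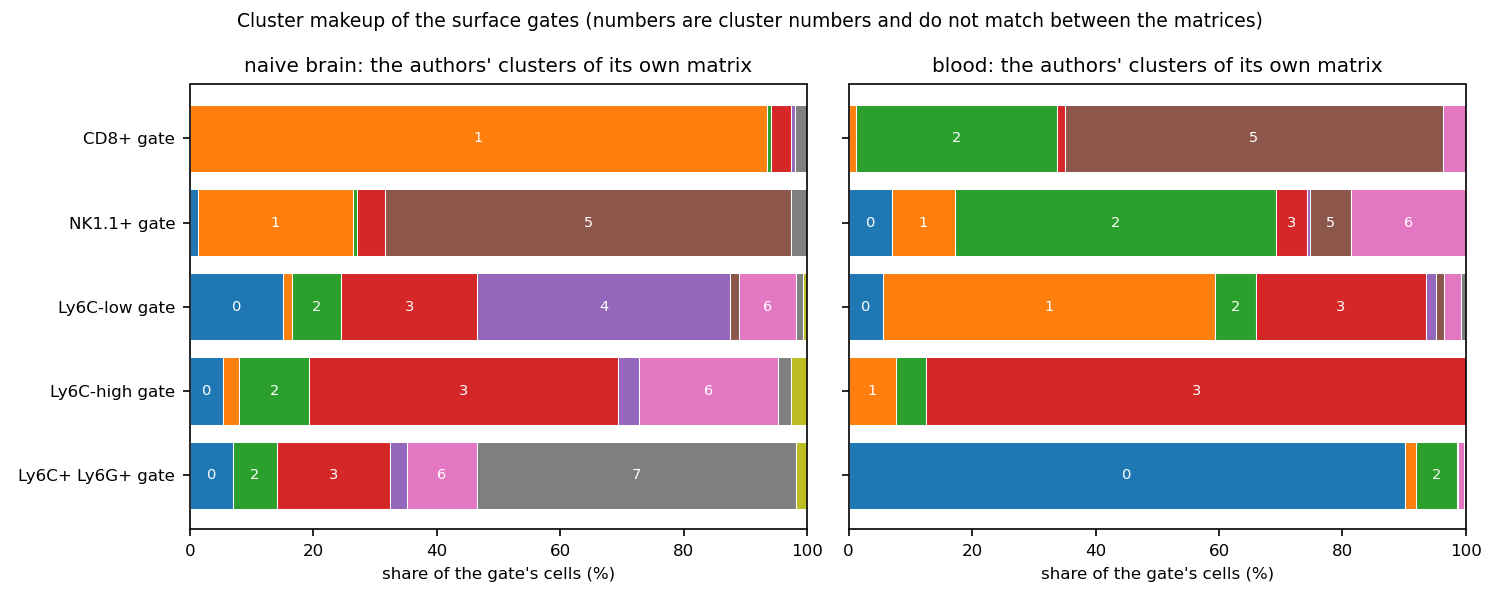
Share of each gate's cells (percent, stacked bars) in the authors' clusters, for the naive brain and the blood, coloured and numbered by cluster within each matrix, so that a colour does not mean the same cells in both panels. In the blood, cluster 2 is the microglia-like cluster and takes 103 of the 198 NK1.1+ cells, and cluster 5 (T and NK cells) takes 49 of the 80 CD8+ cells.

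Marker sums gave the same picture by sample. The 10 NK markers summed to 50.8 and 39.0 CP10k in the brain's NK1.1+ gate and 8.37 and 2.69 CP10k in the blood's, while the microglia markers summed to 2.31 and 4.02 and to 39.5 and 52.5 CP10k. Neutrophil markers reached 251 and 226 CP10k in the blood's NK1.1+ gate against 14.4 and 24.4 CP10k in the brain's.
In the CD8+ gate, T cell markers summed to 74.8 and 78.2 CP10k in the brain and 49.9 and 51.3 CP10k in the blood. Neutrophil markers stood beside them at 57.3 and 11.1 and at 156 and 138 CP10k.
The Ly6C-low gate of the brain was uneven between its samples, with nonclassical monocyte markers at 48.2 and 8.11 CP10k and erythroid markers at 0.176 and 48.6 CP10k. Blood samples of that gate had 19.1 and 34.5 CP10k of nonclassical markers.

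**Figure D2:**
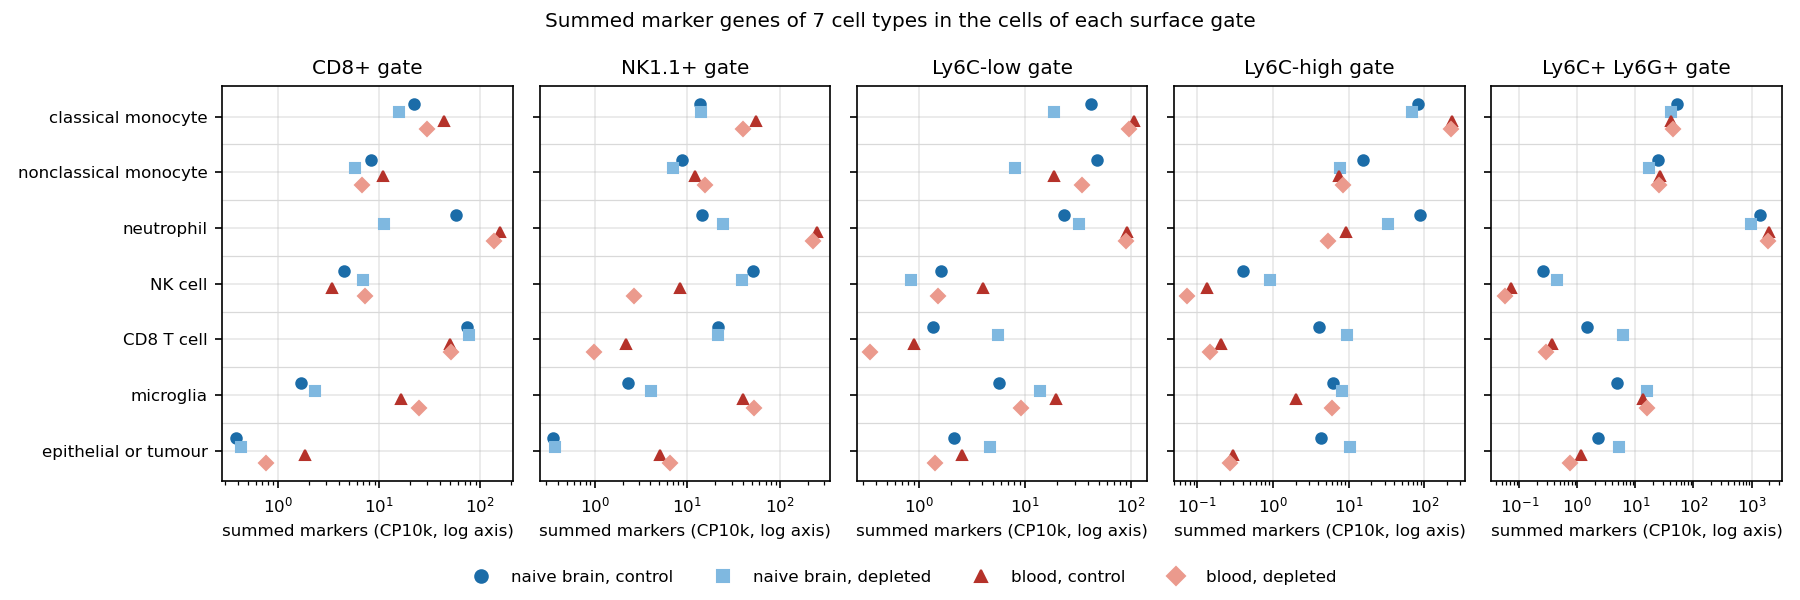
Summed level of each fixed marker list (CP10k, log axis) in every gate, with 1 point per hashed sample of the naive brain and the blood. The NK cell list separates the tissues in the NK1.1+ gate, at 50.8 and 39.0 CP10k in the brain and 8.37 and 2.69 CP10k in the blood.

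CD8 T cells of the naive brain had more of some homing and effector genes of tissue memory cells and less of the genes for circulation through lymph nodes than gated CD8+ cells of the blood. The set called higher was small, 0.679% of the 3238 measured genes (22 genes), and 11.9% were called lower (386 genes). Without shared droplets these shares were 6.15% and 11.9% of 3348 genes. Of the 22 genes called higher 17 were also called without shared droplets, and of the 386 called lower 244. Inside the T cell clusters, 9 of the 22 and 133 of the 386 were called again. With all cells the genes of the gating and lineage antigens were not called, with a log2 ratio of 0.45 for Cd8a and 0.95 for Cd3e, the CD3 epsilon chain. Without shared droplets Cd3e was called higher, with a log2 ratio of 1.23, and Cd8a, at 0.78, was not called.

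Ccr7, which guides cells into lymph nodes, was at 0.0758 and 0.0996 CP10k in the naive brain and 0.942 and 2.50 CP10k in the blood, a log2 ratio of -3.21. Both brain samples lay under both blood samples, and the interval of the depleted brain sample ran from 0.0530 to 0.170 CP10k. The transcription factor Klf2, which drives expression of S1pr1, was at 2.20 and 2.49 CP10k in the naive brain and 5.87 and 9.75 CP10k in the blood. Its log2 ratio was -1.63, and -2.10 without shared droplets, and the samples did not overlap. S1pr1, the receptor for exit from lymphoid organs, had a log2 ratio of -1.36, and Il7r, the interleukin 7 receptor of long-lived T cells, one of -1.55. Lef1, a factor of naive T cells, was at 0.758 and 0.421 CP10k in the naive brain and 0.814 and 2.67 CP10k in the blood. There the control samples of both tissues nearly met, and the log2 ratio was -1.74, or -2.98 without shared droplets.

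Of the 9 measured genes of naive and memory T cells, 7 were called lower and 0 higher, with a median log2 ratio of -1.74. The median over all measured genes was within 0.01 of 0. Without shared droplets 9 of 10 were called lower (median -2.94), and inside the T cell clusters alone the median was -2.13. The circulation and egress list gave 6 of 8 lower, with a median of -1.70.

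On the higher side stood Gzmk, a granzyme of memory T cells, at 2.05 and 2.90 CP10k in the naive brain and 0.985 and 0.678 CP10k in the blood. The control brain sample had 14 cells and an interval of 1.35 to 2.98 CP10k, and the depleted one had 140 cells and an interval of 2.62 to 3.21 CP10k. The log2 ratio was 1.65. Cxcr3, a chemokine receptor for entry into inflamed tissue, was at 2.58 and 3.02 CP10k in the naive brain and 0.985 and 0.763 CP10k in the blood (log2 ratio 1.66). Cxcr6, a receptor of tissue-resident T cells, was at 3.26 and 4.79 CP10k in the naive brain and 2.40 and 0.932 CP10k in the blood (log2 ratio 1.43). Without shared droplets the log2 ratios of Cxcr3 and Cxcr6 were 2.53 and 3.00. Each kept both brain samples above both blood samples. The chemokine Ccl5 was among the most abundant, with 78.8 and 104 CP10k in the naive brain and 44.3 and 34.2 CP10k in the blood, a 2.58-fold difference that was 12.2-fold without shared droplets. Fasl, the ligand of the death receptor Fas, and Nkg7, a granule protein, had log2 ratios of 1.35 and 1.14.

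The effector lists depended on the shared droplets. With all cells, 4 of 11 cytotoxic genes were called higher (median log2 ratio 0.52), and without shared droplets 10 of 11 (median 2.62). Tissue residency genes went from 1 of 9 (median 0.17) to 5 of 9 (median 1.32), and checkpoint receptors from 1 to 4 of 5. For Gzmb, granzyme B, the log2 ratio was 0.40 with all cells and 3.48 without shared droplets, where it stood at 3.26 and 3.84 CP10k against 0.596 and 0.0916 CP10k, the latter from 3 and 1 molecules. Nkg7 went from 1.14 to 2.47. The blood side without shared droplets rested on 9 and 19 cells. Inside the T cell clusters, with shared droplets kept, the log2 ratio of Gzmb was 0.22.

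Genes of myeloid cells were lower in the brain's CD8+ gate. C1qa, a complement subunit of microglia and macrophages, was at 0.682 and 1.37 CP10k in the naive brain and 14.4 and 17.0 CP10k in the blood, and S100a8, a neutrophil calcium-binding protein, at 19.7 and 3.71 CP10k in the naive brain and 53.4 and 46.0 CP10k in the blood. All 6 measured MHC class II genes and all 6 complement genes were called lower (medians -2.48 and -2.91). Inside the T cell clusters alone the complement median was 0.45. The blood's gate held 26 microglia-like cells of 80, and neutrophil markers summed higher there in both samples. Cells labelled native myeloid or B220 were left out of the brain's gate by rule and not out of the blood's. The part of any of these in the difference was not tested. Interferon response genes had a median of -0.45, with 0 of 24 called higher and 2 lower.

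**Figure D3:**
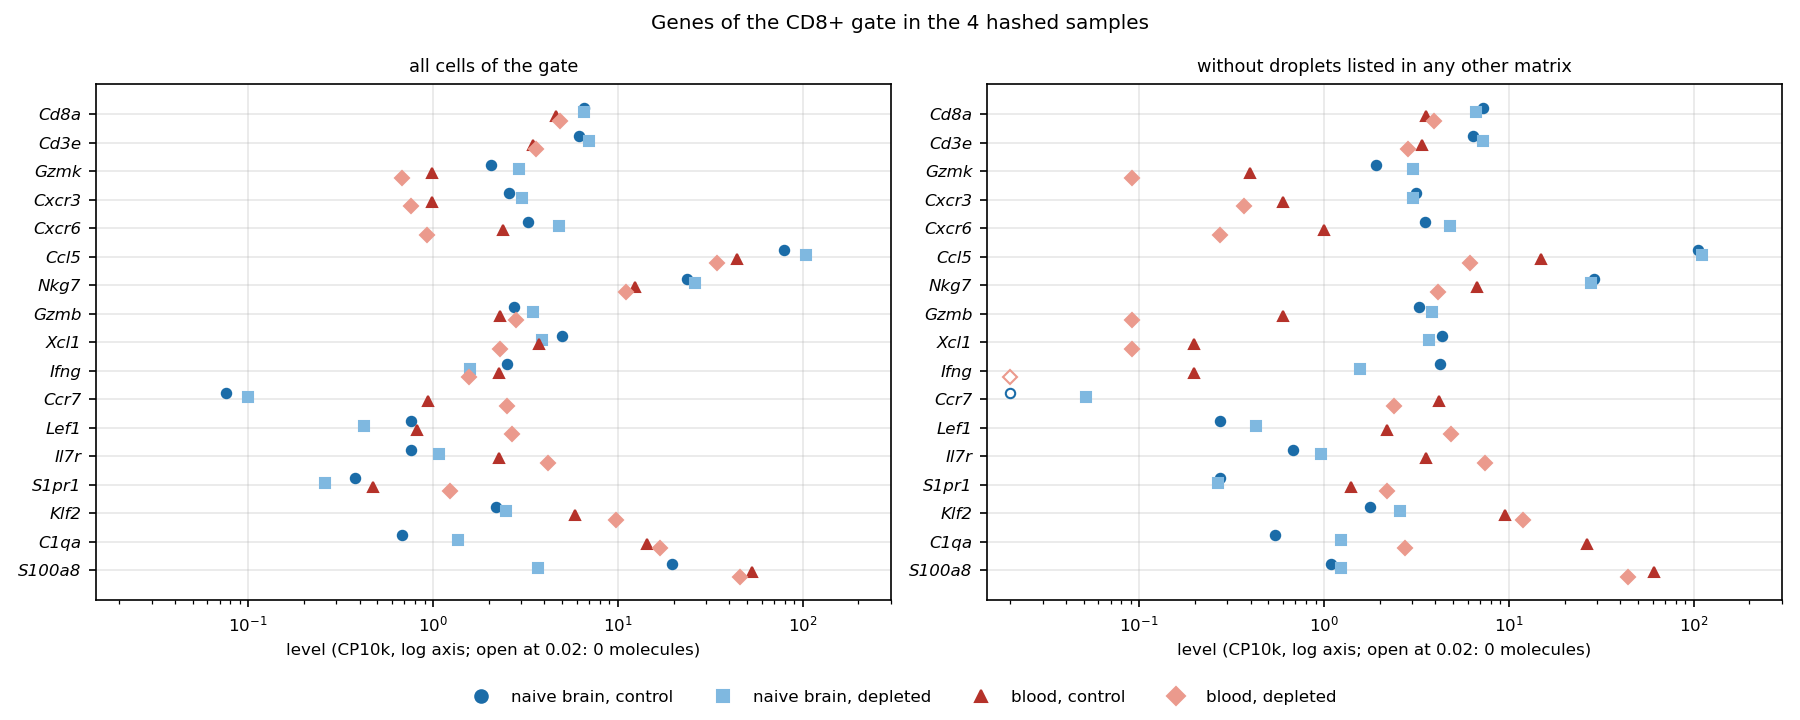
Level of named genes in the CD8+ gate (CP10k, log axis), 1 point per hashed sample, with all cells on the left and without shared droplets on the right; open points stand for 0 molecules. Ccr7, Klf2 and Il7r lie lower and Gzmk, Cxcr3 and Cxcr6 higher in both brain samples.

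In the NK1.1+ gate the brain carried the genes of NK cells, and the blood's gate held less of them and more of the genes of microglia. Genes called higher were 11.1% and called lower 22.5% of 3794 measured genes (421 and 853 genes), and 15.2% and 20.7% of 3667 without shared droplets. Without those droplets, 336 of the 421 genes called higher and 565 of the 853 called lower were called again. Scaled without ribosomal, mitochondrial and haemoglobin genes, 48.8% of the called genes were higher, in place of 33.0%. Klrb1c, which encodes the NK1.1 antigen itself, was at 5.59 and 4.43 CP10k in the naive brain and 0.334 and 0.148 CP10k in the blood, a log2 ratio of 3.86. Ncr1, the NKp46 receptor, was at 4.08 and 4.51 CP10k in the naive brain and 0.520 and 0.266 CP10k in the blood, a log2 ratio of 3.24. Cells gated by the NK1.1 tag in the blood had less of the NK1.1 transcript in both samples.

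Granule and effector genes stood well apart. Gzmc, a granzyme of activated NK cells, was at 20.3 and 8.42 CP10k in the naive brain and 0.148 and 0.0295 CP10k in the blood (log2 ratio 5.93), and Gzma at 24.2 and 15.5 CP10k in the naive brain and 6.14 and 1.48 CP10k in the blood (log2 ratio 2.27). Xcl1, a chemokine that attracts dendritic cells, was at 19.9 and 18.4 CP10k in the naive brain and 1.26 and 0.930 CP10k in the blood, a log2 ratio of 3.999. All 10 measured cytotoxic genes were called higher, with a median of 3.25 against -0.10 over all measured genes. Microglial genes ran the other way: C1qa was at 1.06 and 2.87 CP10k in the naive brain and 33.0 and 30.3 CP10k in the blood, a log2 ratio of -3.62. All 7 complement genes and 15 of 16 lysosomal genes were called lower in the brain. Chemokine genes had 2 called higher and 12 lower of 15, inflammatory cytokines 0 and 8 of 9, MHC class II 0 and 6 of 6, and cell cycle genes 0 and 6 of 9. Cxcl2, a neutrophil attractant, had a log2 ratio of -4.62. Cells labelled native myeloid or B220 were left out of the brain's gate by rule and not out of the blood's. The sides were thus not filtered alike for microglial, complement, lysosomal and class II genes, and the part of that rule was not tested.

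Restricting the gate to the NK cluster of the brain and the T and NK cluster of the blood left 25 and 77 brain cells and 8 and 5 blood cells and gave smaller gaps for most NK genes. There, the cytotoxic median was -0.32 (1 of 12 called higher, 1 lower). Klrb1c had a log2 ratio of 0.63 and Xcl1 of 0.38, while Gzma turned to -1.33 and Gzmc was at 4.15. Prf1, the pore-forming perforin, went from 2.95 to -0.27. Circulation genes, by contrast, were further apart in these clusters, with 5 of 7 called lower and a median of -1.69, against 3 of 7 and -0.95 with all cells. Klf2 was lower either way, with log2 ratios of -1.21 and -0.995. Ccl3, a chemokine of activated NK and myeloid cells, turned from -1.07 to 3.85. A single cell of the whole blood gate held 44.8% of its Gzma molecules. For Prf1, Gzmc, Klrb1c, Xcl1 and Ccl3 the share in 1 cell was 38.9%, 40.0%, 32.1%, 39.7% and 5.77%. The T and NK cluster of the blood also took 49 of the 80 CD8+ cells.

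Ly6C-low cells of the naive brain stood apart from the blood by genes of recent activation, and the blood by genes of classical monocytes. Of 3572 measured genes 3.25% were called higher and 3.05% lower (116 and 109), the smallest shares of the 3 myeloid gates. With the depleted brain sample alone against the blood, 679 genes were called in place of 225. Without shared droplets they were 5.02% and 4.3% of 3463, and 101 of the 116 and 101 of the 109 genes were called again. Immediate early genes, which respond to stimulation and also to tissue dissociation, had 14 of 16 called higher and 0 lower. Their median log2 ratio was 1.59 against -0.07 for all measured genes, 2.24 without shared droplets and 2.14 inside the nonclassical clusters. Those clusters held 105 control and 7 depleted brain cells of this gate, so every brain value inside them rests mostly on the control sample.

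Fos, a subunit of the AP-1 transcription factor, was at 19.3 and 25.8 CP10k in the naive brain and 8.82 and 3.83 CP10k in the blood (log2 ratio 2.06). Dusp1, a phosphatase that dampens MAP kinase signals, was at 16.3 and 14.1 CP10k in the naive brain and 3.43 and 2.31 CP10k in the blood (log2 ratio 2.49), and Egr1, an early growth response factor, at 6.43 and 9.40 CP10k in the naive brain and 3.44 and 1.49 CP10k in the blood. Without shared droplets the log2 ratios of Fos, Dusp1 and Egr1 were 3.48, 3.40 and 3.99. In each of these genes both brain samples lay above both blood samples. Brains were digested and blood was not, and the part of digestion in these genes was not tested.

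Cxcl2, which draws neutrophils through CXCR2, was at 15.5 and 7.71 CP10k in the naive brain and 2.70 and 0.470 CP10k in the blood, a 9.95-fold difference, or 29.6-fold without shared droplets. Its log2 ratio was 4.53 inside the nonclassical clusters. Interleukin 1 beta (Il1b) was at 34.2 and 10.0 CP10k in the naive brain and 4.19 and 6.55 CP10k in the blood. Chemokines had 5 of 12 called higher and 1 lower (median 1.28), and feedback genes and targets of NF-kB 7 of 19 (median 0.73). Nfkbiz, an NF-kB cofactor, and Atf3, a stress factor, had log2 ratios of 2.14 and 2.07.

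The promoter of Cxcl2 is shown because this gene was called higher in all 3 myeloid gates. The sequence runs from 250 bases before to 50 after the RefSeq start on GRCm38.p6, at chr5:90903649-90903948 on the plus strand, with capitals for kappa B sites (GGG, any 2 bases, TTTCC) searched on both strands. It held 2 matches, at -97 and -78 from the start, and 1.63% of 32851 promoters of this length held at least 1.
Cxcl2: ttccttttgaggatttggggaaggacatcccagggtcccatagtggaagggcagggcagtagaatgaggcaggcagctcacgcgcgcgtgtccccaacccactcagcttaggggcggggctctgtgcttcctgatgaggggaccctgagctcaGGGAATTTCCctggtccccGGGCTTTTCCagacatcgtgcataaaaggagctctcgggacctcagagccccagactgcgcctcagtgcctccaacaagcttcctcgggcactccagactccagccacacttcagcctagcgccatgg

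MHC class II genes differed between the brain samples. H2-Aa was at 10.2 and 63.8 CP10k in the naive brain and 10.2 and 4.797 CP10k in the blood. It was called higher only by a narrow gap, with the control brain sample at 10.21 and the control blood sample at 10.16 CP10k. Without shared droplets these samples stood at 9.62 and 11.4 CP10k, and H2-Aa was not called. Of 9 measured class II genes 5 were called higher with a median of 1.45, and the median was -0.08 inside the nonclassical clusters, with their 7 cells of the depleted brain sample. Complement genes had 1 called higher and 1 lower of 7, and 4 and 1 of 7 without shared droplets. There C1qa, C1qb and C1qc, the chains of C1q, had log2 ratios of 3.39, 3.48 and 3.42. In the brain, 41 of 273 cells of this gate lay in the microglia cluster, and 36 of 202 without shared droplets, and their part in these values was not tested.

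Classical monocyte genes were lower in the brain. Chil3, a chitinase-like protein, was at 0.443 and 0.326 CP10k in the naive brain and 14.0 and 16.5 CP10k in the blood (log2 ratio -5.02), and Fn1, fibronectin, at 0.176 and 0.276 CP10k in the naive brain and 5.92 and 8.60 CP10k in the blood (log2 ratio -4.62). Ly6c2, one of the genes for the gating antigen Ly6C, was at 0.253 and 0.359 CP10k in the naive brain and 4.70 and 2.59 CP10k in the blood, a log2 ratio of -3.04. Brain samples lay under blood samples in each. The classical cluster held 60 of 273 brain cells and 191 of 693 blood cells of this gate. Without shared droplets Chil3 and Fn1 had log2 ratios of -5.59 and -4.90. Inside the nonclassical clusters they had -2.86 and -2.19. Ccr2, the receptor for exit from the marrow, was at 0.759 and 3.81 CP10k in the naive brain and 9.13 and 6.06 CP10k in the blood. Ace and Treml4, which mark nonclassical monocytes, were not called. Ace was at 2.47 and 0.267 CP10k in the naive brain and 1.64 and 2.86 CP10k in the blood (log2 ratio -0.74). Treml4 was at 2.70 and 0.200 CP10k against 1.04 and 2.58 CP10k (log2 ratio -0.43). In both, only the depleted brain sample lay under both blood samples. Nr4a1, their lineage factor and also an immediate early gene, was at 14.1 and 3.29 CP10k against 2.48 and 2.86 CP10k (log2 ratio 1.70). Interferon response and oxidative phosphorylation genes had 0 called in either direction, of 17 and 16 measured.

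Ly6C-high cells of the naive brain had far more chemokine, cytokine and MHC class II RNA than Ly6C-high cells of the blood. Of 4010 measured genes 17.6% were called higher and 10.1% lower (705 and 404), and 17.3% and 13.1% of 4069 without shared droplets, where 540 of the 705 and 352 of the 404 were called again. Cxcl9 and Cxcl10 encode ligands of CXCR3 that interferons induce. Cxcl10 was at 7.99 and 9.64 CP10k in the naive brain and 0.136 and 0.124 CP10k in the blood and Cxcl9 at 7.08 and 5.37 CP10k in the naive brain and 0.0908 and 0.0248 CP10k in the blood. Without shared droplets Cxcl10 was at 2.39 and 6.38 CP10k against 0.125 and 0.0832 CP10k, a log2 ratio of 4.51 after 5.31 with all cells. Both brain samples stood far over both blood samples, whose intervals for Cxcl10 ran from 0.0500 to 0.296 and from 0.0403 to 0.290 CP10k.

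Cxcl2 was at 40.8 and 16.9 CP10k in the naive brain and 0.431 and 0.695 CP10k in the blood, and Il1b at 39.1 and 17.5 CP10k in the naive brain and 1.36 and 0.795 CP10k in the blood. Ccl5 and Ccl2, attractants of T cells and monocytes, had log2 ratios of 4.57 and 3.76. Of 14 measured chemokine genes 12 were called higher and 2 lower (median 3.09, against -0.03 over all measured genes). The chemokine median was 4.27 without shared droplets and 4.45 inside the classical monocyte clusters. Of the gate's 75 brain cells in that cluster, 20 remained without shared droplets. Inflammatory cytokines gave 5 of 8 higher (median 2.82). Immediate early genes gave 17 of 18 higher (median 2.09), and NF-kB targets 10 of 19 (median 1.097).

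The MHC class II chain H2-Eb1, which presents peptides to CD4 T cells, was at 15.8 and 8.24 CP10k in the naive brain and 0.114 and 0.124 CP10k in the blood, with no overlap of the groups. Its log2 ratio was 5.68, and 5.39 without shared droplets. Of 6 class II genes 5 were called higher and 0 lower, with medians of 4.08 for all cells and 4.92 inside the classical monocyte clusters. Of the gate's 75 brain cells in that cluster, 20 were unshared. The brain's cluster also carried border macrophage and dendritic cell markers, and the part of such cells in these values was not tested. Interferon response genes were less uniform. Of 24, 8 were called higher (median 0.38), and without shared droplets 3 higher and 4 lower of 23 (median -0.25). Gbp2, a GTPase induced by interferon gamma, had a log2 ratio of 3.01, and Isg15, a ubiquitin-like interferon product, of 2.29.

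The promoters of Cxcl10 and H2-Eb1 are shown because these genes were named above among the chemokine and class II genes, in the same RefSeq window and build. Capitals in Cxcl10 (chr5:92348840-92349139, minus strand) mark 1 interferon-stimulated response element (GAAA, any 2 bases, GAAA) at -213, and 3.44% of promoters held this motif. Capitals in H2-Eb1 (chr17:34305617-34305916, plus strand) mark 1 Y box, CTGATTGG, at -62, a motif in 4.10% of promoters. Each promoter was searched on both strands only for the motif named with it, and a match is a description of the letters. The Cxcl10 sequence also holds ccaatcag, the Y box read on the other strand, which is left in small letters.
Cxcl10: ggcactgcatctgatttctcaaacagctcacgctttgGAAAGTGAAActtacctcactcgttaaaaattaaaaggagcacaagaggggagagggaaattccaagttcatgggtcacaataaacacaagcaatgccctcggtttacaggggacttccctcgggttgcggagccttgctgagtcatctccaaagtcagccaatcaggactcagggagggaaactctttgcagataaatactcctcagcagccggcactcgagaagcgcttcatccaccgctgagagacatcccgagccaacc
H2-Eb1: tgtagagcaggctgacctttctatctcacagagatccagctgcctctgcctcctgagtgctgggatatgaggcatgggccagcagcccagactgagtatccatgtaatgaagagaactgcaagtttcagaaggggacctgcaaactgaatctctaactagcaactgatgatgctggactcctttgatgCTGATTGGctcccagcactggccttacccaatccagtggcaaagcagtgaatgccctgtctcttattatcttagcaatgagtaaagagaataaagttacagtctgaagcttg

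Genes of circulating classical monocytes were lower in the brain. Fn1 was at 6.63 and 4.52 CP10k in the naive brain and 23.02 and 33.6 CP10k in the blood (log2 ratio -2.38), and Ccr2 at 4.89 and 4.45 CP10k in the naive brain and 19.1 and 16.0 CP10k in the blood (log2 ratio -1.91). Ly6c2 was at 7.64 and 7.57 CP10k in the naive brain and 17.5 and 13.4 CP10k in the blood, so both brain samples were under both blood samples, and the pooled levels differed 2.03-fold. In unshared cells of the classical monocyte clusters, with 11 and 9 brain cells, its log2 ratio was 0.00021. F13a1, a clotting factor subunit of monocytes, had a log2 ratio of -2.12. Some genes in this gate moved with few cells: Camp, a neutrophil granule peptide, had a log2 ratio of 5.95, but 57.3% of its brain molecules lay in 1 cell and the ratio was -0.73 inside the classical monocyte clusters. Neutrophil markers summed to 87.7 and 32.7 CP10k in the brain's gate and 9.33 and 5.41 CP10k in the blood's. Cell cycle genes gave 12 of 13 higher with a median of 2.50, which was 0.97 inside the classical monocyte clusters, and 34 of the 150 brain cells lay in the deep cluster led by Krt8 and Rhox5.

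Neutrophils of the naive brain's Ly6C+ Ly6G+ gate carried more granule transcripts of the marrow stages and less of the receptors of circulating neutrophils than those of the blood. Of 3192 measured genes 21.3% were called higher and 7.86% lower (679 and 251). Without shared droplets the shares were 15.9% and 16.8% of 2867, and 323 of the 679 and 228 of the 251 genes were called again. The median over all measured genes was 0.19, so small differences on the higher side are near that shift. Centred on this median, 56.5% of the called genes were higher, in place of 73.0%.

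Camp, cathelicidin, was at 72.0 and 50.4 CP10k in the naive brain and 3.59 and 3.84 CP10k in the blood (log2 ratio 4.02), and at 232 and 111 CP10k against 2.95 and 2.43 CP10k without shared droplets. Inside the neutrophil clusters its log2 ratio was 4.86. Ngp, a neutrophil granule protein, was at 66.7 and 56.0 CP10k in the naive brain and 3.77 and 5.26 CP10k in the blood (log2 ratio 3.77), and Ltf, lactoferrin, at 17.8 and 14.96 CP10k in the naive brain and 1.08 and 1.24 CP10k in the blood (log2 ratio 3.72). Brain samples lay over blood samples in all 3 genes, by 16.2-fold, 13.7-fold and 13.2-fold in the pooled cells. Cebpe, the factor that drives these secondary granule genes, and Ly6g, the gene of the gating antigen, had log2 ratios of 1.38 and 1.25, and Cybb, the catalytic subunit of the oxidase that makes superoxide, one of 2.19. Among 12 granule genes 6 were called higher and 0 lower (median 0.98), and 8 of 12 inside the neutrophil clusters (median 1.79). The abundant S100a8 did not follow them, with 490.3 and 341 CP10k in the naive brain and 689 and 668 CP10k in the blood, a log2 ratio of -0.70. Without shared droplets it was at 908 and 545 CP10k against 745 and 739 CP10k, with the brain samples on either side of the blood, and inside the neutrophil clusters its log2 ratio was 0.056. Mmp9, a gelatinase of late granules, had -0.45 with all cells.

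Receptors of circulating neutrophils were lower. Csf3r, the receptor for granulocyte colony-stimulating factor, was at 6.75 and 5.72 CP10k in the naive brain and 24.9 and 24.1 CP10k in the blood (log2 ratio -1.96). Cxcr2, the receptor for CXCL2, was at 5.44 and 3.69 CP10k in the naive brain and 16.9 and 17.3 CP10k in the blood (log2 ratio -1.87). In both genes the groups did not overlap, and without shared droplets Csf3r and Cxcr2 stood at -2.73 and -2.49. Selplg, the ligand of P-selectin, had a log2 ratio of -1.70. Integrins and selectin ligands as a list had 3 called higher and 2 lower of 13, and 1 and 5 of 9 without shared droplets.

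Cxcl2, the ligand, was higher where its receptor was lower, at 48.2 and 15.1 CP10k in the naive brain and 2.49 and 2.36 CP10k in the blood (log2 ratio 3.67, and 4.76 without shared droplets). Thbs1, thrombospondin 1, was at 4.79 and 3.43 CP10k in the naive brain and 0.256 and 0.168 CP10k in the blood (log2 ratio 3.73). Ptgs2, the inducible prostaglandin synthase, and G0s2, a lipase inhibitor, had log2 ratios of 2.86 and 2.77. Il1b was not called, at -0.25. Chemokines gave 11 of 14 higher and 1 lower (median 2.60). Immediate early genes gave 6 of 16 higher (median 0.69), and 11 of 16 inside the neutrophil clusters (median 1.36).

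Lists of other myeloid cells were higher in the same gate and depended on which cells were kept. MHC class II genes had 6 of 6 called higher (median 3.42, and 2.77 without shared droplets), and H2-Aa, with a log2 ratio of 3.72, had -0.97 in unshared cells of the neutrophil clusters. Border macrophage markers summed to 9.24 and 3.22 CP10k in the brain and 0.231 and 0.213 CP10k in the blood, and 21 of the 114 brain cells lay in the classical monocyte cluster. Interferon response genes had 10 higher and 2 lower of 23 (median 1.07), but inside the neutrophil clusters the median was -1.06.

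**Figure D4:**
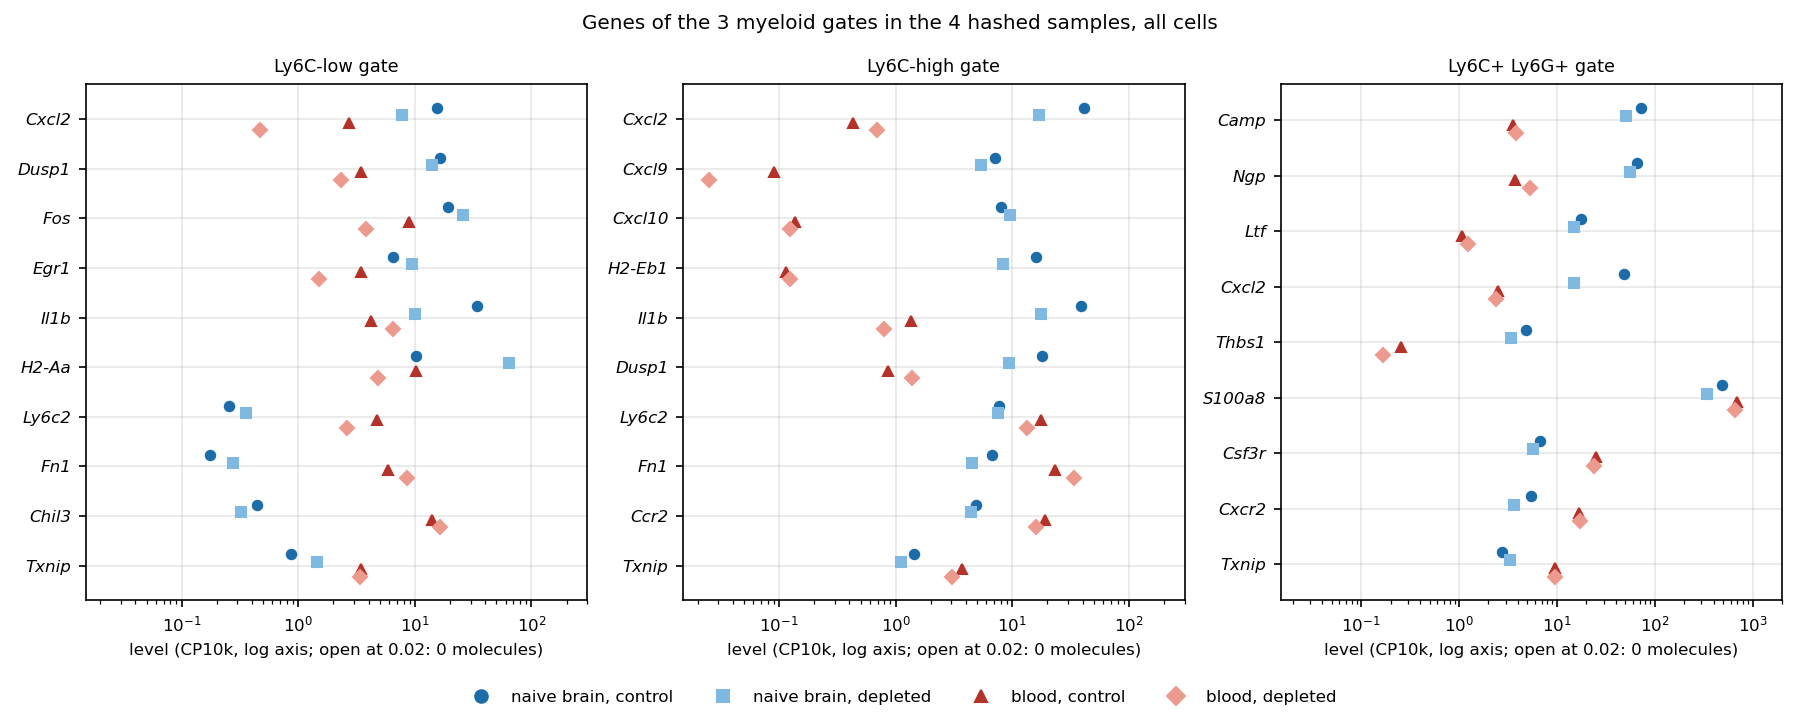
Level of named genes in the 3 myeloid gates (CP10k, log axis), 1 point per hashed sample with all cells. Cxcl2 lies higher in both naive brain samples of every panel and Txnip lower.

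Genes called in all 5 gates were sought after leaving out every listed cell type marker and the gene classes left out of naming. Before that step the gates had 3192 to 4010 measured genes. How many genes were kept and measured in all 5 was not counted, so the counts below have no share beside them. Of the genes kept, 1 was called higher in all 5 gates, Dusp2, a phosphatase that acts on MAP kinases. Its log2 ratios were 2.25 in Ly6C-low, 2.99 in Ly6C-high, 2.67 in Ly6C+ Ly6G+, 1.36 in NK1.1+ and 1.06 in CD8+. Dusp2 was called higher in each gate without shared droplets too. In unshared cells of the cluster with most of the gate's cells in each matrix, they were 2.48, 4.27, 0.80, 0.72 and 3.39. For NK1.1+ that cluster of the blood is the microglia-like one. On the lower side 11 of the genes kept were called in all 5: Ccl6, Msrb1, Wfdc17, Nfam1, Gsr, Tmcc1, Gda, Igsf6, Alox5ap, Fgr and Hacd4. Several of these are known from myeloid cells, among them the chemokine Ccl6, the leukotriene protein Alox5ap and the kinase Fgr. Ccl6 had log2 ratios from -1.49 and -1.82 in the Ly6C-low and Ly6C-high gates to -2.61 in CD8+ and -3.27 in NK1.1+, with -1.49 in Ly6C+ Ly6G+. The gates of a tissue share a matrix and its correction, so these are not 5 separate observations.
Txnip, an inhibitor of thioredoxin and of glucose uptake, was called lower in the 3 myeloid gates, at 0.872 and 1.45 CP10k in the naive brain and 3.46 and 3.37 CP10k in the blood in Ly6C-low (log2 ratio -1.50).
In Ly6C-high cells Txnip was at 1.43 and 1.12 CP10k in the naive brain and 3.68 and 3.06 CP10k in the blood (log2 ratio -1.38).
In Ly6C+ Ly6G+ cells the log2 ratio of Txnip was -1.63.

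**Figure D5:**
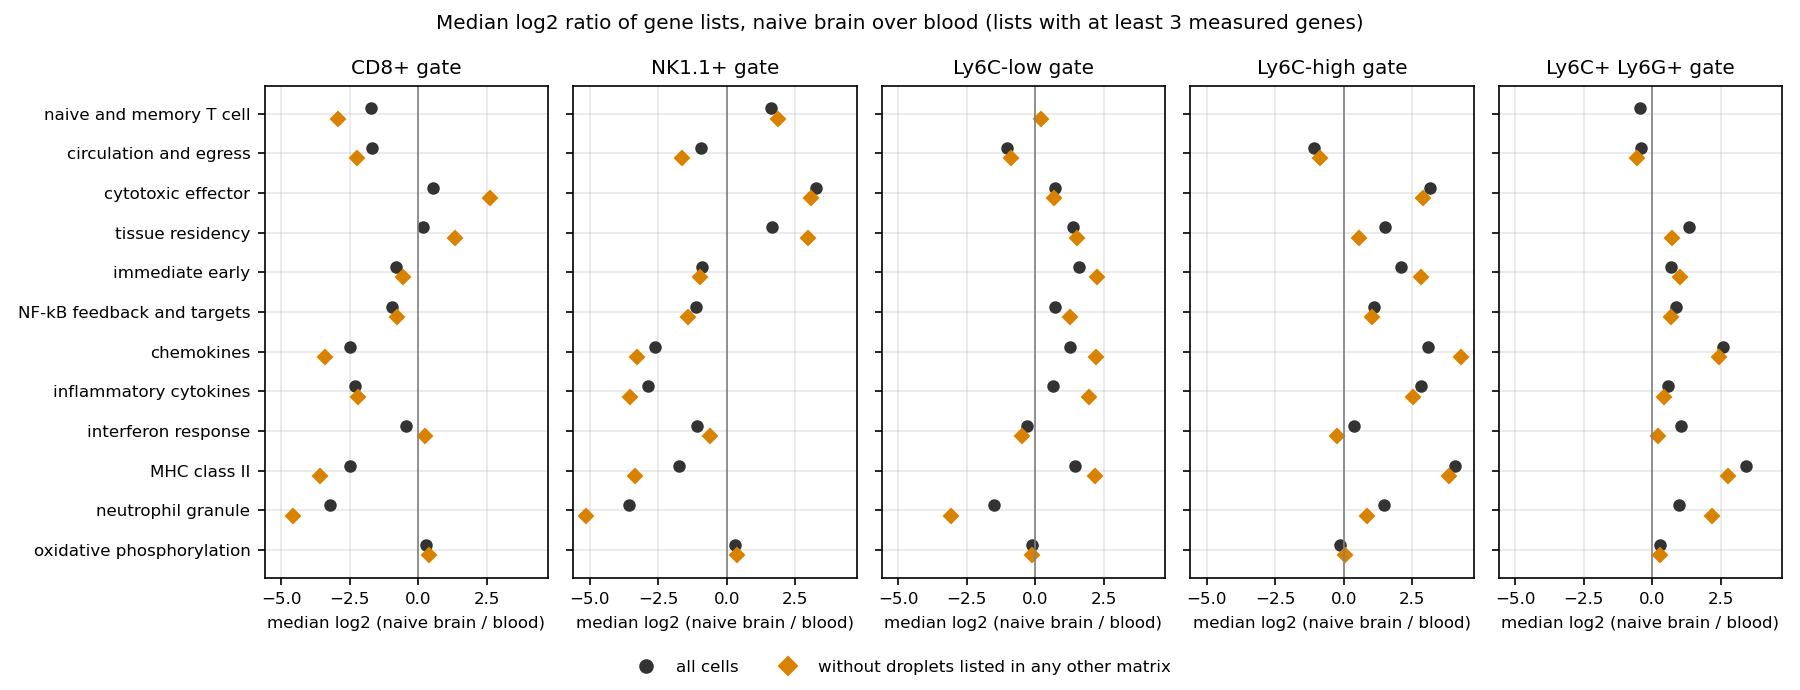
Median log2 ratio (naive brain over blood) of each gene list in each gate, with all cells and without shared droplets. Immediate early genes lie above 0 in the 3 myeloid gates, at 1.59, 2.09 and 0.69 with all cells, and naive and memory T cell genes lie at -1.74 in the CD8+ gate.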

How the data were processed

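Cells were profiled in 1 droplet pool of 8 hashed samples with RNA, 35 antibody tags and hashtags, on the 10x 3' v3 assay per the labels' protocols. Reads were processed with Cell Ranger 3.1, Seurat 3.1.1 and the mm10 build, per the submitters' processing notes; their order of use and settings are not given in the sources used here. Each deposited matrix holds natural log values, ln(1 + count), of UMI counts that the authors had corrected for depth. On the values, every corrected count was whole within 1e-06, and the sums equalled the corrected totals in the deposited annotation in all 2653 and 2924 cells. The plan had assumed raw counts; raw counts per gene were not used here. Of the annotation, 63 columns were not used.

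The log was undone, corrected counts were summed per gate and hashed sample over the 16274 genes in both matrices (of 17129 and 16619) and scaled to 10000, with Python 3.11.15, numpy 2.4.6, pandas 2.3.3 and scipy 1.17.1. Correction was done within each matrix, so depth differences between cells are already reduced and levels across matrices are compared only as shares of molecules. Corrected totals per hashed sample and gate ran from 131948 to 2637149. All cells were kept and no doublet caller was run. Calls used 0.1 CP10k added, 0.5 CP10k, 2-fold and no overlap of samples. On simulated data, 100 of 100 genes raised 4-fold and 88 to 99 of 100 lowered 4-fold were called in each gate. There all samples were drawn from the pooled blood profile of the gate with counting error only. Differences between hashed samples and in cell makeup were not simulated.

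The members and the 18 marker and 26 theme lists were chosen with earlier results of these data known. Named genes are members of those lists, genes called in all 5 gates, or among the 15 highest and 15 lowest called genes of a gate at 1 CP10k or more in both samples of the higher tissue, leaving out markers of other cell types, mitochondrial, ribosomal, haemoglobin, immunoglobulin, T cell receptor, sex-linked and unnamed genes. Alternatives changed the added value, the minimum level, weighting, scaling, depth, clusters, shared droplets, the earlier annotation of the blood and each sample. Promoters came from RefSeq on GRCm38.p6 and matched 3 of 3 genes looked up. A few genes are not reported here.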

Additional observations from a re-analysis of the deposited data

Results flagged for a closer look

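In 4 gene lists the Ly6C-high and NK1.1+ gates differed in opposite directions, with every brain and blood pair of samples on one side in the first gate and on the other side in the second. The difference between the gates was not tested. For chemokines the gates' medians differed by 5.73 on the log2 scale, at 3.09 in Ly6C-high and -2.63 in NK1.1+. Inflammatory cytokines differed by 5.68, at 2.82 and -2.86. MHC class II genes differed by 5.81, at 4.08 and -1.73. Cell cycle genes differed by 4.48, at 2.50 and -1.99. Beside each, 103 of the 198 blood cells of the NK1.1+ gate lay in the microglia-like cluster and 34 of the 150 brain cells of the Ly6C-high gate lay in the deep cluster led by Krt8 and Rhox5. Without those clusters the NK1.1+ medians of chemokines and cell cycle genes were 0.54 and 0.59. Cells labelled native myeloid or B220 were left out of the brain's gates only, and the part of that rule was not tested.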

How the results depend on the processing

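Counts of called genes moved by over 1.5 times with the threshold settings in every gate. With 1 CP10k added in place of 0.1, they were 61 of 225 in Ly6C-low, 234 of 1109 in Ly6C-high, 181 of 930 in Ly6C+ Ly6G+, 423 of 1274 in NK1.1+ and 130 of 408 in CD8+. With a minimum level of 2 CP10k they were 88, 279, 280, 401 and 117, and with no minimum level 367, 2122, 1774, 2276 and 833. Within the majority cluster they were 530 in Ly6C-high, 401 in Ly6C+ Ly6G+ and 205 in CD8+, with unshared droplets of that cluster 527 in Ly6C-high and 624 in CD8+, and within the T and NK clusters 585 in NK1.1+. The earlier annotation of the blood gave 358 in Ly6C-high and 353 in Ly6C+ Ly6G+. Cells of 2000 to 20000 raw UMIs gave 545, 330 and 201 in Ly6C-high, Ly6C+ Ly6G+ and CD8+ and leaving out the microglia-like and epithelial-marker clusters gave 673 in Ly6C-high and 169 in CD8+. The last setting, the unshared majority cluster and the T and NK clusters were chosen after seeing the data. Leaving out 1 hashed sample gave 258 to 679 in Ly6C-low, 864 to 1422 in Ly6C-high, 796 to 1300 in Ly6C+ Ly6G+, 1284 to 1427 in NK1.1+ and 450 to 564 in CD8+; the 679 came without the naive brain sample labelled control. The share of higher genes in CD8+ went from 5.39% to 34.0% without shared droplets. Causes of these moves were not tested.

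Among genes called and lists with a median past 2-fold, signs turned in 27 alternative values. Values that were smaller with all cells turned too, such as Ifng (-0.18 to 3.49 without shared droplets) and Xcl1 (0.39 to -0.16 in the majority cluster) in CD8+, S100a8 (-0.70 to 0.0036 without shared droplets) in Ly6C+ Ly6G+ and interferon response (0.38 to -0.25 without shared droplets) in Ly6C-high; Ifng there rests on 1 blood molecule. Inside majority clusters these were MHC class II and H2-Aa in Ly6C-low (-0.083 and -0.12; H2-Aa -0.0022 when unshared), neutrophil granule genes and Camp in Ly6C-high (-1.04 and -0.73; unshared -0.95 and -1.102, with Ly6c2 at 0.00021), interferon response in Ly6C+ Ly6G+ (-1.06; unshared -1.67, with H2-Aa at -0.97), and complement and C1qa in CD8+ (0.45 and 0.45; unshared 1.59 and 1.25). Cells of 2000 to 20000 raw UMIs gave -0.94 for interferon response, -0.00012 for MHC class II and -0.54 for H2-Aa in Ly6C+ Ly6G+. Without the microglia-like and epithelial-marker clusters, complement and C1qa in CD8+ were 0.58 and 0.60, and chemokines, cell cycle and Ccl3 in NK1.1+ were 0.54, 0.59 and 1.0997. In the T and NK clusters of NK1.1+, with 13 blood cells, cytotoxic genes were -0.32, Ccl3 3.85, Gzma -1.33 and Prf1 -0.27. No paired analysis was possible because each arm and tissue had 1 hashed sample, so that groups share fewer than 2 replicate numbers; a test with arm as the pair was not run. Depth limits most the CD8+ gate of the naive brain labelled control, with 14 cells.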
